A study of Mus musculus with 49 samples.

Results

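Transcript levels of 10 genes known as targets of Yap were followed through all 16 culture conditions of a study of mouse hepatocyte dedifferentiation. The rule that chose them is a list of published targets and uses no measured value, although earlier results of these data were known when it was written: Ccn1 (Cyr61), Ccn2 (Ctgf), Fjx1, Ankrd1, Axl, Myof, Amotl2, Lats2, Ajuba and Ptpn14. All 10 were found by symbol among the 46078 gene identifiers of the deposited table, and every one had counts. The question was how Yap target expression moves while hepatocytes dedifferentiate in culture, and how it stands in the cell types derived from them.

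Yap is a transcriptional coactivator that has no DNA-binding domain and reaches its target genes through the TEAD factors. When the Hippo kinases are active, the Lats kinases phosphorylate Yap, which is then held in the cytoplasm or degraded. Loss of cell contact, spreading on a stiff surface and tension in the actin skeleton let it enter the nucleus, and in the liver it is known for control of organ size, for biliary identity and for regeneration.

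All samples are labelled as wild type on C57BL/6J. Fresh hepatocytes (FH, n = 3) were isolated by collagenase from adult livers at 10 weeks of age and freed from non-parenchymal cells by repeated centrifugation, and hepatocytes of this kind were plated with EGF at 20 ng/mL for 3 h or for 1, 2, 4, 7 or 14 days (n = 3 each). Hepatocytes of 7 days were also kept with verteporfin, a small molecule used to block transcription through Yap, at 0.3 µM or with its solvent DMSO (n = 2 each). The passaged progeny of such cultures are termed dediHeps (n = 5, monolayer), and from them came aggregates in low-attachment wells (n = 3), spherical organoids in Matrigel (dediHep-SOs, n = 3) and budding organoids of dediHeps that had received Cdx2 (dediHep-BOs, n = 3). The other groups were chemically induced liver progenitors in monolayer (CLiPs, n = 3), spherical organoids of fetal intestinal progenitors from E13.5 embryos (FIPC-SOs, n = 3) and budding organoids of intestinal stem cells from adult crypts of 10-week-old mice (ISC-BOs, n = 4). The paper describes spherical organoids as grown with Wnt3a and a Wnt agonist. For budding organoids of dediHeps both were later removed, and adult crypts were grown without them.

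Each of the 49 libraries counts unique molecular identifiers (UMIs) at the 3′ ends of transcripts, with totals of 861047 to 3872936 UMIs. Levels are given as CPM, the counts scaled to a common library size, after correction with TMM factors over all libraries. They are compared between conditions for 1 gene, not between genes. On this scale a count of 3 in a library equals 0.630 to 4.11 CPM, and a 0 allows a level up to that. The study states in general that experiments were repeated independently, but apart from culture codes on dediHeps, aggregates and dediHep-SOs no source ties a library to an animal or culture, so p-values measure the spread between these libraries. A gene is termed called where the edgeR quasi-likelihood test gave a log2 fold change beyond 2 in size together with an FDR under 0.1, the thresholds of the study, and "rose" or "fell" marks an FDR under 0.1. In these bulk samples a smaller share of cells that express a gene and less RNA of it per cell cannot be told apart.

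In 6 conditions 1 library stood apart with a high score. A library score, the mean log2 level of the 200 genes that lead the variation between libraries of the same condition (members left out), was over 1 log2 unit above the other libraries of the condition in replicate 1 of FH (6.80), replicate 2 on day 4 (6.51), replicate 2 on day 7 (7.00), replicate 1 of dediHeps (6.88), replicate 3 of dediHep-SOs (5.73) and replicate 2 of CLiPs (6.12). All 3 libraries at 3 h had scores of 6.61 to 6.93. Of the 9999 genes in that component only 0.600% had a higher loading than Ccn1, 2.81% than Ccn2 and 3.15% than Lats2, whereas 45.2% were above Ptpn14, 68.0% above Axl and 85.5% above Ajuba. Values without these 6 libraries, or with the score as a term in the fit, are given where they change a call or a size of these members. Only high scores counted as standing apart. Replicate 1 on day 7 (4.15, next 5.64), replicate 1 of FIPC-SOs (4.49, next 5.77) and replicate 2 of ISC-BOs (4.13, next 5.33) lay over 1 log2 unit below the others. These libraries of low score were kept in the fits without the libraries that stood apart. The labels give no batch.

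The TEAD factors bind a core of the letters CATTCC, which reads GGAATG on the opposite strand. RefSeq promoters of GRCm38.p6, from 250 bases before to 50 after the start site, were found for 8 of the 10 members, and those of Ccn2 and Fjx1 were not given. The core was present on either strand in 7 of the 8, with none in Myof, against 16.6% of 27025 genes with a promoter of the same length. A further Lats2 promoter, at chr14:57734369-57734668, had no core. Counted by promoter, 14.7% of 32851 held it. The windows below show where these letters lie in the members that the results turn on. Each is 30 bases, read 5′ to 3′ on the strand of its gene, with the core in capitals.
Ccn1, chr3:145650071-145650100, minus strand: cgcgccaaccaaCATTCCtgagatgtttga
Ankrd1, chr19:36120037-36120066, minus strand: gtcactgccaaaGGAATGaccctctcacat
Ankrd1, chr19:36119950-36119979, minus strand: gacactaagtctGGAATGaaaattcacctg
Axl, chr7:25788949-25788978, minus strand: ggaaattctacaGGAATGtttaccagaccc
Amotl2, chr9:102717727-102717756, plus strand: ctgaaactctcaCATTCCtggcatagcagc
Lats2, chr14:57746102-57746131, minus strand: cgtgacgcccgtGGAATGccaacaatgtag
Ajuba, chr14:54577830-54577859, minus strand: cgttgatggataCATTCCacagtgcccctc
Ajuba, chr14:54577808-54577837, minus strand: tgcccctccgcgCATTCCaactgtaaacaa
Ptpn14, chr1:189728110-189728139, plus strand: cctccccggacgCATTCCtggcccgcccag
Ankrd1 and Ajuba held the core at 2 places each, and the other 5 at 1. In Lats2 it begins 4 bases after the start site, in the transcribed part, and in the others between 65 bases (Amotl2) and 233 bases (Axl) before it. A match of 6 letters is a description and not a bound site. In the GENCODE M21 annotation of GRCm38 the genes without a window lie at chr10:24595442-24598683 on the plus strand (Ccn2), chr2:102449366-102452499 on the minus strand (Fjx1) and chr19:37899036-38043577 on the minus strand (Myof).

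**Figure D1:**
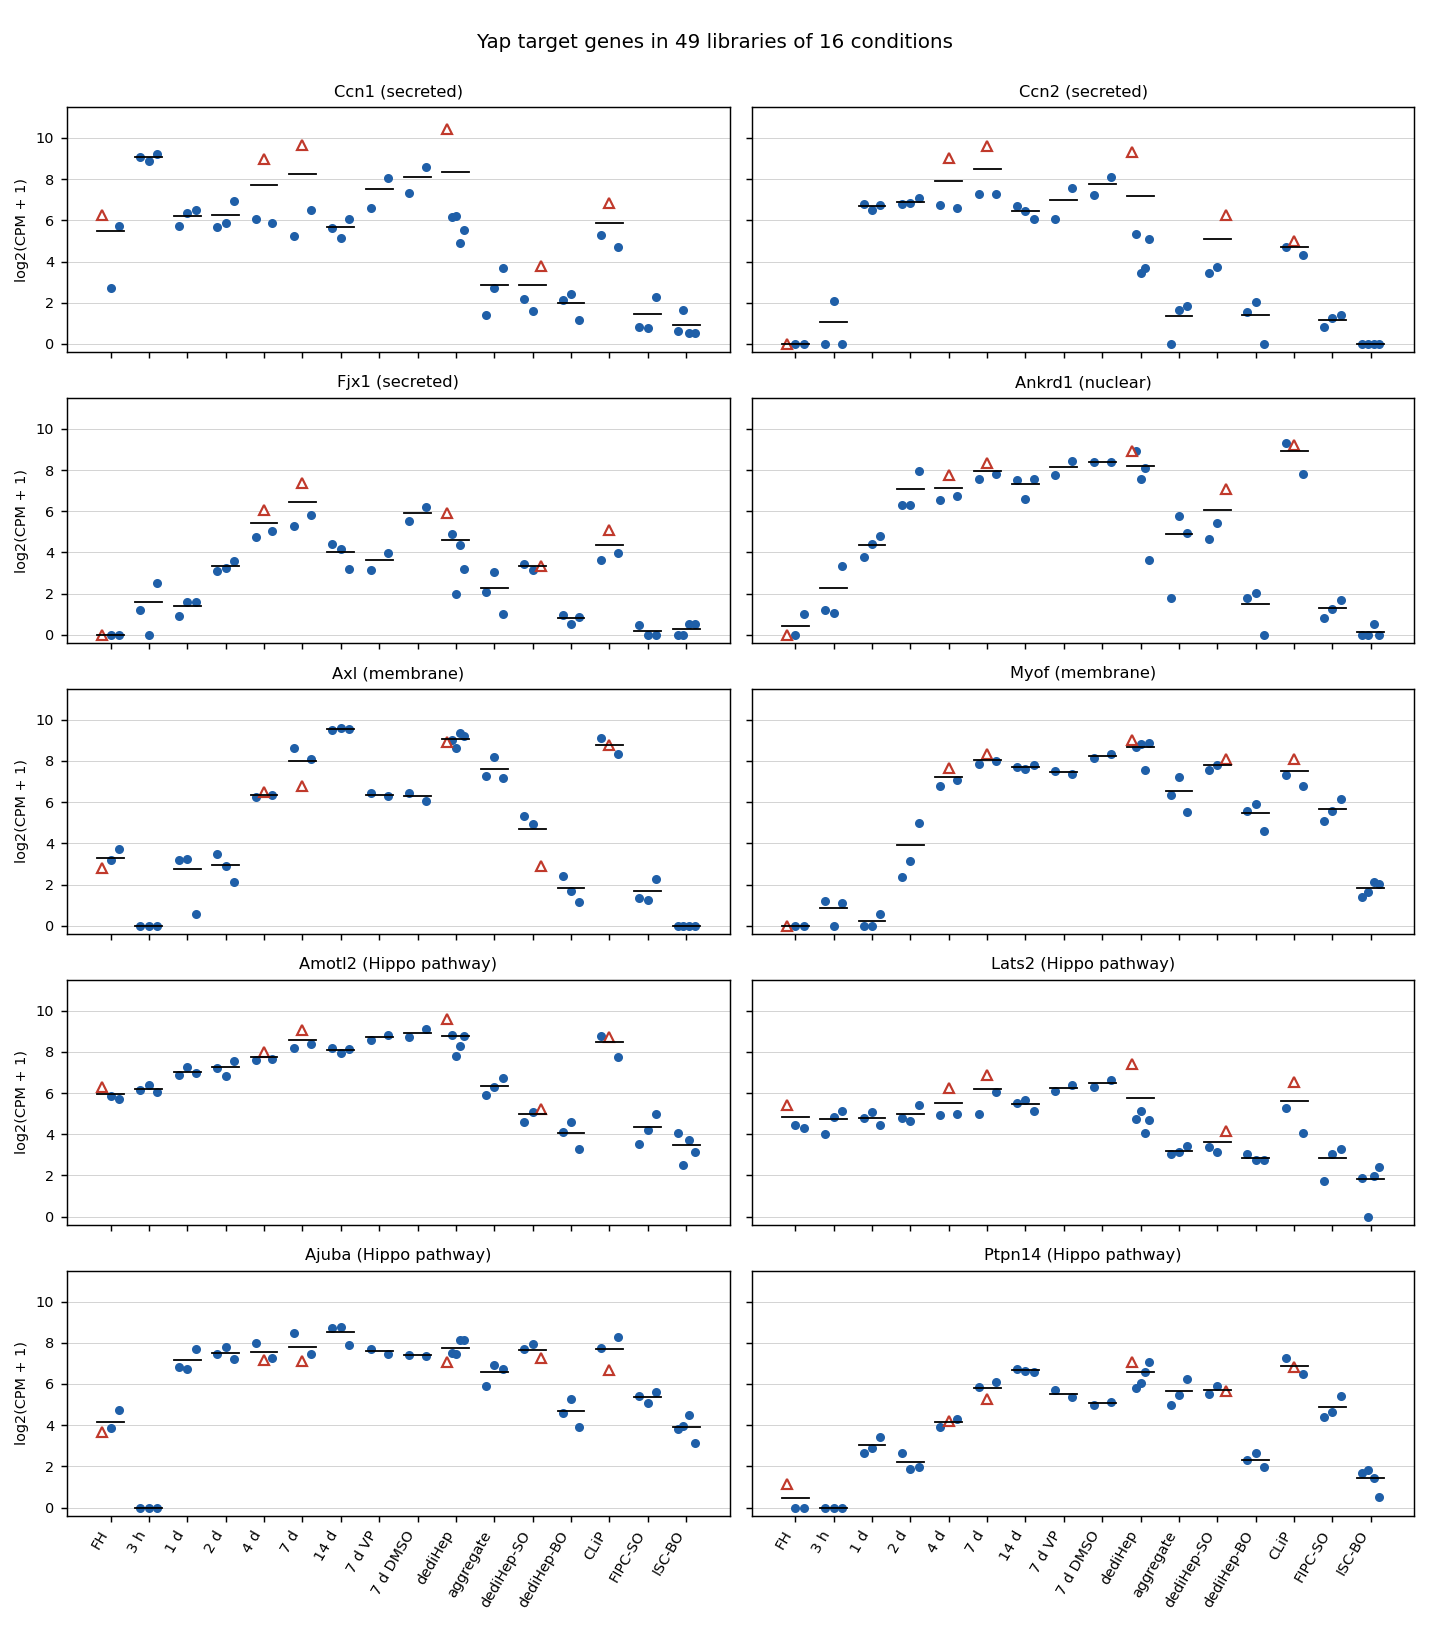
Level of each of the 10 Yap target genes in every library, as log2(CPM + 1), by condition; points are libraries, bars are the log2 of the condition mean CPM + 1, and open red triangles are the 6 libraries that stand apart. Ccn1 peaks at 3 h, Ccn2 and Ajuba are high from day 1, Myof from day 4, and Axl and Ajuba have no count at 3 h.

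In monolayer culture the members did not move together at first and then were nearly all higher than in fresh cells. At 3 h Ccn1 was called higher, and Axl and Ajuba were called lower, with no count left in any library. The number of members called higher against FH was 1 at 3 h, 4 on day 1, 6 on day 2, 8 on day 4, 9 on day 7 and 8 on day 14, and after 3 h none was called lower. Among all 12443 genes tested 3.06% were called higher and 3.85% lower at 3 h. The share called higher was 6.57% on day 1, 9.21% on day 2, 11.4% on day 4, 13.2% on day 7 and 14.1% on day 14, and the share called lower was 10.9%, 12.1%, 12.4%, 12.8% and 15.3%. All 10 members passed the filter on low counts in this fit. Ccn2, Fjx1 and Myof had no count in FH, and Ankrd1 and Ptpn14 had 1 UMI each. These members passed through later groups and had no room to be called lower than FH. The summed level of the 10 members was 105 to 213.5 CPM in FH, 591 to 716 at 3 h, 442 to 587 on day 1 and 1940 to 2154 on day 14, with no overlap between FH and any later time. At 3 h most of the sum was Ccn1, at 477 to 601 CPM.

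Fitted fold changes of members without a count in a group depend on the prior count. With such members set at their lower bound, a median was taken over members with more than 3 counts in at least 1 of the 2 groups. This left out Ccn2, Myof and Ptpn14 at 3 h and Myof on day 1. The median was 0.22 at 3 h, 0.99 on day 1, 2.94 on day 2, 4.23 on day 4, 5.40 on day 7 and 5.32 on day 14, against -0.07 to 0.17 for all genes tested. The 6 comparisons share the FH libraries and are not independent of each other.

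Ccn1 encodes a secreted matrix-associated protein that binds integrins. It was measured at 74.3, 5.48 and 51.6 CPM in the 3 FH libraries and at 534, 477 and 601 CPM at 3 h. It then stood at 51.2, 80.6 and 89.0 CPM on day 1, 50.8, 56.6 and 119.7 on day 2, 65.1, 498 and 57.6 on day 4, 37.3, 796 and 88.1 on day 7 and 48.9, 34.6 and 64.9 on day 14. The 3 h libraries were all above the FH and day 1 libraries, while on days 4 and 7 a single library was high and the other 2 lay near or within the FH range. Against FH, Ccn1 was called higher at 3 h (log2 fold change 3.59, SE 0.96, edgeR FDR 0.0194), on day 4 (2.18, SE 0.91, FDR 0.0629) and on day 7 (2.73, SE 0.93, FDR 0.0216). On day 14 the difference was 0.14 (SE 0.91, FDR 0.912), and from 3 h to day 1 Ccn1 fell by 2.94 on the log2 scale (SE 0.91, FDR 0.0126).

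The calls for Ccn1 on days 4 and 7 each rested on the library that stood apart. Without replicate 2 of day 4 the log2 fold change on that day was 0.41 (FDR 0.745), and without replicate 2 of day 7 it was 0.46 (FDR 0.663). The day 4 call was also lost without replicate 2 of FH (1.68, FDR 0.193) or replicate 3 of FH (2.32, FDR 0.107). Without all the libraries that stood apart the 3 h value was 4.14 (FDR 0.000117), and with the library score in the fit it was 1.74 (FDR 0.101). Without those libraries the values were 1.01 on day 4 (FDR 0.203) and 1.07 on day 7 (FDR 0.163). With the score they were 1.38 (FDR 0.0487) and 1.33 (FDR 0.062), under the fold threshold. With the score in the fit, the step from 3 h to day 1 was -0.23 (FDR 0.828). The FH library with the nearest score, 6.80, had 74.3 CPM. The part of this variation in the 3 h result cannot be told apart from the time point, since all 3 libraries at 3 h have high scores.

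Ccn2, a relative of Ccn1 with the same kind of secreted product, followed another course. It had no count in the 3 FH libraries and at 3 h was at 0, 3.30 and 0 CPM. On day 1 it was at 109, 90.1 and 108 CPM, on day 2 at 109, 112 and 133, on day 4 at 106, 522 and 95.5, on day 7 at 152, 767 and 154, and on day 14 at 103, 86.8 and 66.0. Every library from day 1 on was above every earlier one, and the 2 highest were again the libraries that stood apart. Ccn2 was at least 87.2-fold higher than FH on day 1 (edgeR FDR 2.42e-05), at least 262-fold higher on day 7 (FDR 7.5e-07) and at least 78.2-fold higher on day 14 (FDR 1.7e-05). From 3 h to day 1 it rose 87.4-fold (95% exact counting interval 29.8 to 425, FDR 5.83e-05). The difference between day 1 and day 14 was -0.19 on the log2 scale (FDR 0.86). Without the libraries that stood apart the bounds were 57.6-fold on day 4 and 86.7-fold on day 7, in place of 210.2-fold and 262-fold.

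Fjx1, the homologue of a fly Golgi kinase that modifies cadherins upstream of Hippo, rose later. It had no count in FH, 1.27, 0 and 4.66 CPM at 3 h and 0.867, 2.01 and 2.03 CPM on day 1. It reached 7.43, 8.53 and 11.2 CPM on day 2, 25.6, 66.2 and 32.4 on day 4 and 38.0, 164 and 55.5 on day 7, and was at 20.0, 17.0 and 8.11 on day 14. Against FH it was not called at 3 h (FDR 0.158) or on day 1 (FDR 0.114), and was called on day 2 (at least 7.58-fold, FDR 0.00174), day 7 (at least 65.0-fold, FDR 1.32e-06) and day 14 (at least 14.5-fold, FDR 0.00022). The 14-day libraries lay below those of days 4 and 7, with no overlap.

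Ankrd1 encodes an ankyrin-repeat protein best known from the nucleus and sarcomere of stressed heart muscle. It had a single UMI in the FH libraries together (0, 0 and 1.03 CPM) and was at 1.27, 1.10 and 9.31 CPM at 3 h. It increased to 12.6, 20.1 and 26.9 CPM on day 1, 78.9, 78.4 and 244 on day 2, 91.5, 215 and 105 on day 4, 191, 321 and 223 on day 7 and 184, 95.6 and 189.9 on day 14. From day 1 no library overlapped with FH or 3 h. Against FH the ratio was 49.6-fold on day 1 (counting interval 8.74 to 1977, edgeR FDR 0.00042), 602-fold on day 7 (108 to 23803, FDR 5.15e-08) and 400.2-fold on day 14 (71.6 to 15827, FDR 1.45e-07). At 3 h it was 9.98-fold with an interval of 1.42 to 433, and was not called (FDR 0.149). The step from 3 h to day 1 (2.25 on the log2 scale, SE 0.70, FDR 0.0131) was under the fold threshold when replicate 1 or 2 of 3 h or replicate 3 of day 1 was left out (1.79 to 1.99).

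Among the membrane proteins, Axl, a receptor tyrosine kinase for the ligand Gas6, was undetected at 3 h and rose from day 4. It was at 5.90, 8.22 and 12.4 CPM in FH, at 0 in all 3 libraries at 3 h, at 8.24, 8.56 and 0.508 on day 1 and at 10.3, 6.59 and 3.41 on day 2. It then reached 74.0, 87.7 and 80.6 CPM on day 4, 391, 109.7 and 271 on day 7 and 718, 782 and 738 on day 14. The 14-day libraries were above all others of the course, and the day 1 and day 2 values overlapped with FH. Axl was at least 7.68-fold lower at 3 h (edgeR FDR 0.0109) and was called higher on day 4 (3.10, SE 0.60, FDR 0.000296), day 7 (4.77, SE 0.61, FDR 2.53e-06) and day 14 (6.35, SE 0.64, FDR 8.31e-08). Between day 1 and day 14 the log2 fold change was 7.05 (SE 0.65, FDR 5.03e-08).

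Myof, a ferlin that acts in membrane repair and fusion, was nearly absent until day 2. It had no count in FH, 1.27, 0 and 1.16 CPM at 3 h, and 0, 0 and 0.508 CPM on day 1. It appeared at 4.13, 7.76 and 30.6 CPM on day 2 and was at 111, 202 and 135 on day 4, 227, 318 and 253 on day 7 and 209, 192 and 225 on day 14. Against FH it was at least 11.2-fold higher on day 2 (edgeR FDR 0.000322), at least 127-fold on day 4 (FDR 1.51e-07) and at least 175-fold on day 14 (FDR 4.53e-08). Day 14 was 1291-fold above day 1, whose libraries hold 1 UMI in all, with a counting interval of 231 to 51045.

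The other 4 members act on the Hippo pathway itself. Amotl2, an angiomotin-family protein that can hold Yap outside the nucleus, was present in fresh cells and climbed in small steps. Its level was 77.9, 57.5 and 50.6 CPM in FH, 70.1, 82.6 and 66.3 at 3 h, 115, 155 and 123 on day 1, 149.9, 113 and 189.7 on day 2, 192, 254 and 200.2 on day 4, 288, 536 and 336 on day 7 and 294, 242 and 285 on day 14. FH and 3 h overlapped, and all later libraries were above both. Amotl2 rose by 0.99 on the log2 scale on day 1 (SE 0.30, edgeR FDR 0.0126), 1.21 on day 2 (SE 0.30, FDR 0.00258) and 1.73 on day 4 (SE 0.30, FDR 7.11e-05), which is under the fold threshold. It passed that threshold on day 7 (2.58, SE 0.31, FDR 4.58e-07) and day 14 (2.12, SE 0.30, FDR 5.22e-06).

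Lats2, a kinase that phosphorylates Yap, stayed near its level in fresh cells. It was at 42.5, 20.5 and 18.6 CPM in FH and at 15.3, 27.5 and 33.8 at 3 h, 26.5, 32.7 and 20.8 on day 1, 26.8, 23.7 and 41.8 on day 2, 29.3, 73.7 and 30.7 on day 4, 30.3, 118 and 65.9 on day 7, and 44.6, 49.8 and 33.6 on day 14. The FH range overlapped with that of every time point. Lats2 was never called, and rose only on day 7 (1.33, SE 0.48, edgeR FDR 0.0302). That value was 0.78 (FDR 0.2) without replicate 2 of day 7, which stood apart, 1.18 (FDR 0.102) without replicate 2 of FH and 1.12 (FDR 0.116) without replicate 3 of FH. On day 14 the difference from FH was 0.63 (SE 0.48, FDR 0.291), and 1.44 with the library score in the fit (FDR 0.000479).

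Ajuba, a LIM-domain protein that binds the Lats kinases and limits their activity, went from loss at 3 h to high levels on day 1. It was at 11.8, 13.7 and 25.8 CPM in FH and at 0 in all 3 libraries at 3 h. On day 1 it was at 113, 106 and 207 CPM, on day 2 at 177, 220.0 and 148, on day 4 at 257, 144 and 155, on day 7 at 355, 136 and 172 and on day 14 at 426, 427 and 235. None of the 3 ranges (FH, 3 h and day 1 or later) overlapped. Ajuba was at least 15-fold lower than FH at 3 h (edgeR FDR 0.000263), at least 119-fold higher on day 1 than at 3 h (FDR 5.43e-08), and higher than FH by 2.93 on the log2 scale on day 1 (SE 0.45, FDR 4.2e-05) and 4.35 on day 14 (SE 0.47, FDR 2.08e-07).

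Ptpn14, a phosphatase that binds Yap and keeps it in the cytoplasm, rose over the course. It had 1 UMI in FH (1.18, 0 and 0 CPM) and none at 3 h, and was at 5.20, 6.55 and 9.66 CPM on day 1, 5.37, 2.72 and 2.92 on day 2, 14.2, 17.1 and 18.7 on day 4, 57.7, 37.9 and 67.6 on day 7 and 106, 99.1 and 95 on day 14. All libraries from day 1 were above FH and 3 h, and the ranges of days 4, 7 and 14 did not overlap with each other. Against FH the ratio was 17.9-fold on day 1 (counting interval 3.05 to 723, edgeR FDR 0.000643), 144-fold on day 7 (25.7 to 5696, FDR 3.62e-08) and 259-fold on day 14 (46.4 to 10264, FDR 3.55e-09). From day 1 to day 14 it rose by 3.87 on the log2 scale (SE 0.40, FDR 2.55e-07).

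**Figure D2:**
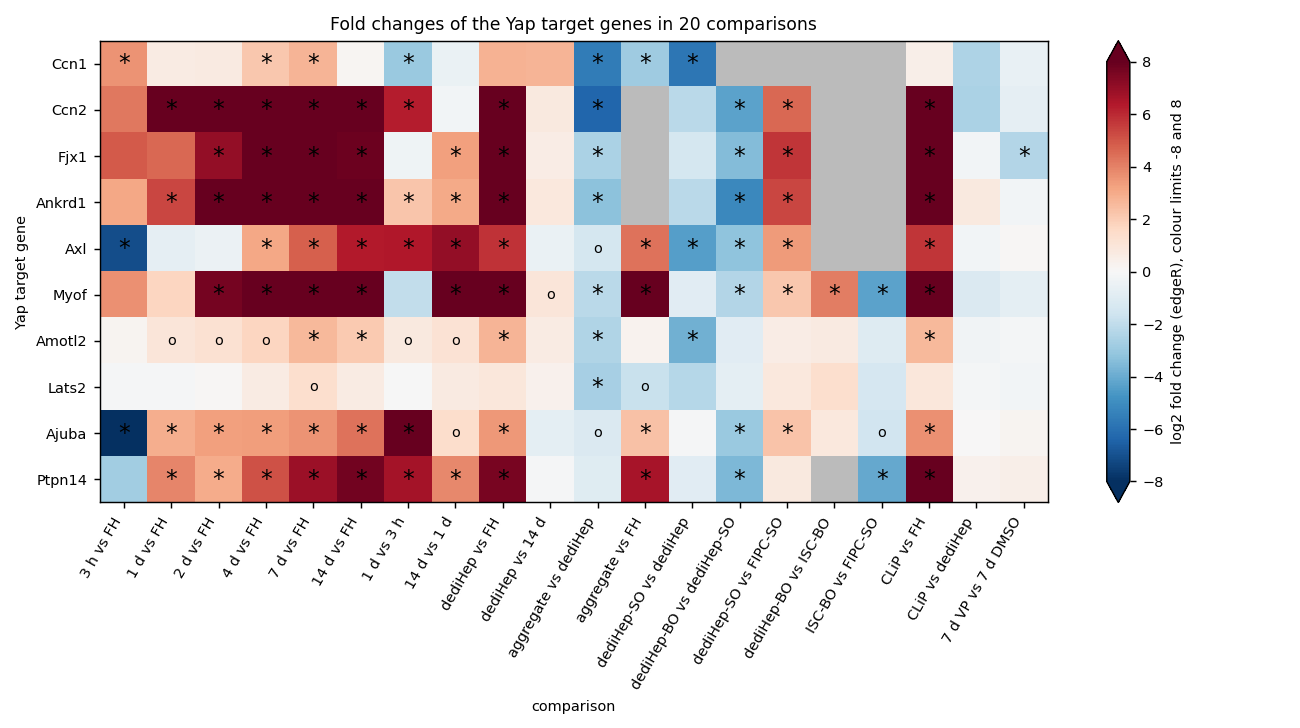
Log2 fold change of each Yap target gene (rows) in 20 comparisons (columns) from edgeR; an asterisk marks genes called, a circle an FDR under 0.1 with a smaller fold, and grey genes that did not pass the filter on low counts. Colours end at 8 in either direction, and fitted values against a group without counts depend on the prior count. Nearly all cells of the columns against FH from day 4 are positive, and all cells of aggregates against dediHeps are negative.

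The direct steps between time points named early and late members. Between 3 h and day 1, where 10.7% of the genes tested were called higher and 13.5% lower, 5 members were called higher (Ccn2, Ankrd1, Axl, Ajuba and Ptpn14) and Ccn1 lower. Of these, Axl, Ajuba and Ptpn14 had no count at 3 h and no room to be called lower. Between day 1 and day 14, where 8.64% were called higher and 6.71% lower, 5 members were called higher, namely Fjx1, Ankrd1, Axl, Myof and Ptpn14. Amotl2 (1.13, SE 0.29, edgeR FDR 0.00485) and Ajuba (1.42, SE 0.40, FDR 0.0112) also rose over that span, under the fold threshold. None was called lower, and Myof, with 1 UMI on day 1, had no room for it.

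Markers of other cells moved over the same time. The summed level of 8 hepatocyte markers was 17786 to 21107 CPM in FH and 1506 to 2107 CPM on day 14, when Tat and Cyp2e1 were at 0. The 4 mesothelial markers Msln, Upk3b, Wt1 and Upk1b were at 0 in FH, summed to 35 to 78.5 CPM on day 4 (Upk3b and Upk1b at 0) and to 296.5 to 447.9 CPM on day 14. The 6 cholangiocyte markers went from 17.8 to 106 CPM in FH (Krt19, Epcam and Cftr at 0) to 1142 to 1318 CPM on day 14. The 8 endothelial markers were at 199 to 337 CPM in FH and at 4.69 to 9.27 CPM on day 14, and the 10 stellate and fibroblast markers were at 88.7 to 223 CPM in FH and 48.6 to 199.9 CPM on day 14. At 3 h the sums were 22366 to 23468 CPM for hepatocyte markers and 65.2 to 122 CPM for endothelial markers. Stellate and fibroblast markers then summed to 30.8 to 39.6 CPM (Col1a1, Lum and Pdgfrb at 0). The 9 macrophage and blood cell markers were at 120 to 367 CPM in FH and 3.82 to 15.1 CPM at 3 h (Adgre1 and Cd5l at 0). They were at 7.12 to 116 CPM on day 1 and 10.4 to 220 CPM on day 14. The part of these cell types in the members' levels was not tested.

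**Figure D3:**
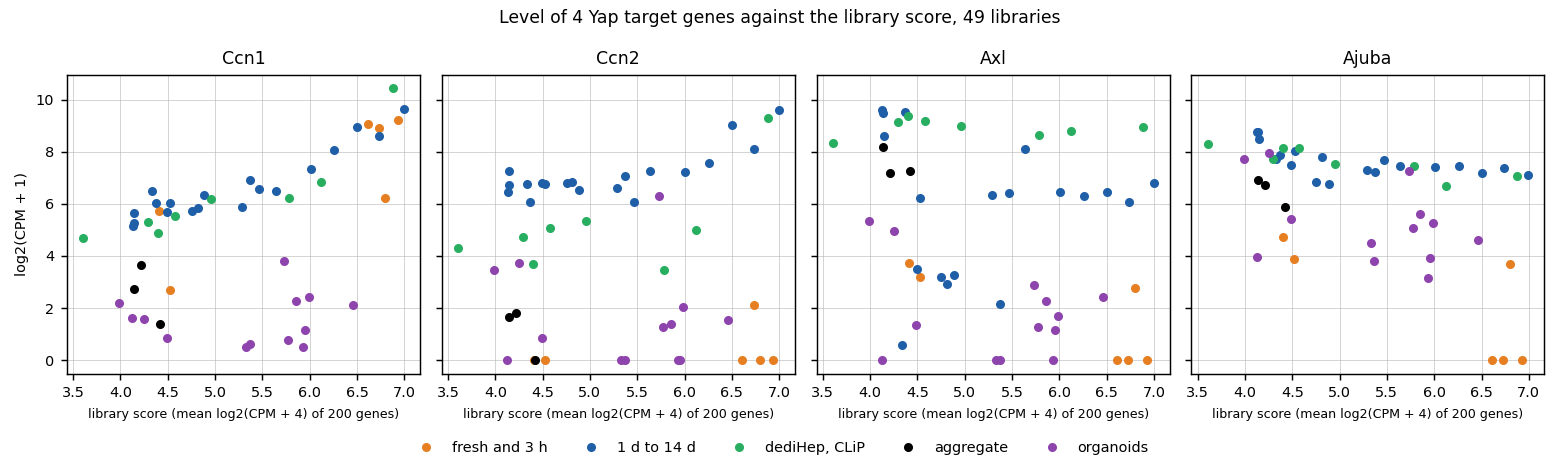
Level of Ccn1, Ccn2, Axl and Ajuba in each library, as log2(CPM + 1), against the library score, the mean log2 level of the 200 genes that lead the variation between libraries of the same condition; colours mark fresh and 3 h cells, cultures of 1 to 14 days, dediHeps and CLiPs, aggregates, and organoids. Among the monolayer cultures the highest Ccn1 and Ccn2 levels are in libraries of high score, while the highest Axl and Ajuba levels are in libraries of low score.

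In passaged dediHeps 8 of the 10 members were called higher than in FH, where 13.1% of 11276 genes tested were called higher and 12.6% lower. The exceptions were Ccn1 and Lats2. Ccn2, Fjx1, Myof, Ankrd1 and Ptpn14, with 0 or 1 UMI in FH, passed through dediHeps and had no room to be called lower. Axl was at 489.6, 509, 395, 664 and 583 CPM in the 5 dediHep libraries (5.76, SE 0.43, edgeR FDR 2.71e-06), and Myof was at 524, 409, 455, 185 and 472 CPM, at least 342-fold above FH (FDR 1.23e-05). Both genes were high in every library, with no overlap with FH.

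Ankrd1 ranged widely, at 488, 486, 191, 277 and 11.4 CPM, and was 694-fold above FH with a counting interval of 124 to 27425 (FDR 0.000717). Ptpn14 was at 132, 55.2, 64.3, 95.1 and 131 CPM (234-fold, interval 41.9 to 9247, FDR 3.47e-05) and Fjx1 at 58.7, 29.1, 3.02, 19.7 and 8.04 CPM (at least 17.4-fold, FDR 0.00962). Among the regulators of Hippo, Amotl2 was at 766, 443, 225, 309 and 429 CPM (2.70, SE 0.47, FDR 0.000934) and Ajuba at 134, 182, 172, 279 and 284 CPM (3.48, SE 0.45, FDR 0.000114). For each of these genes the lowest dediHep library was above the highest FH library.

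Ccn1, Ccn2 and Lats2 shared 1 extreme dediHep library. Ccn1 was at 1386 CPM in replicate 1 and at 71.3, 72.8, 28.4 and 45.4 CPM in the others, which overlap with FH (2.79, SE 1.41, edgeR FDR 0.145). Ccn2 was at 630.5 CPM in that library and at 39.2, 9.97, 11.8 and 32.6 CPM in the others, at least 96.8-fold above FH (FDR 0.0229). Lats2 was at 169.9 CPM there and at 25.6, 33.8, 15.8 and 24.6 CPM elsewhere, and did not pass the test (0.89, SE 0.80, FDR 0.417). Without the libraries that stood apart the Ccn1 value was 0.78 (FDR 0.402), that of Lats2 0.24 (FDR 0.701), and Ccn2 was at least 12-fold above FH (FDR 0.00477).

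Set against hepatocytes of 14 days, no member was called in dediHeps with edgeR or DESeq2, where 3.84% of 11167 genes tested were called higher and 2.09% lower. At an unadjusted p under 0.05, 1 member was higher and 2 were lower, and the share of all genes at that threshold was not computed. Myof rose by 0.95 (SE 0.34, edgeR FDR 0.0977), which did not pass without the library that stood apart (0.84, FDR 0.109) or without any 1 library of day 14 (0.87 to 1.03). For Axl the 5 dediHep libraries lay below the 3 of day 14 (-0.53, SE 0.23, FDR 0.153), and Ajuba differed by -0.81 (SE 0.31, FDR 0.112). Ccn2 turned with the library that stood apart: 0.76 with it (SE 1.19, FDR 0.708) and -1.92 without it (FDR 0.0165), when 4 dediHep libraries at 9.97 to 39.2 CPM are set against 66.0 to 103 CPM on day 14.

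CLiPs, which were made from hepatocytes with small molecules, also held most members at higher levels than fresh cells. Against FH 8 members were called higher and none lower, where 13.1% of 10445 genes tested were called higher and 11.4% lower, and Ccn1 (0.49, edgeR FDR 0.7) and Lats2 (0.92, FDR 0.354) were again the 2 not called. As in the time course, members with 0 or 1 UMI in FH had no room to be called lower. Ankrd1 had its highest condition mean here, at 631, 600.2 and 226 CPM (1312-fold above FH, counting interval 235 to 51836, FDR 0.000262), as did Ptpn14 at 151, 113 and 89.9 CPM (295-fold, interval 52.9 to 11671, FDR 0.000321). Axl was at 556, 442 and 325 CPM (5.69, SE 0.54, FDR 0.000262), Myof at 159, 269 and 109 (at least 174-fold, FDR 0.0006), and Ccn2 at 25.1, 30.7 and 19.0 (at least 22.5-fold, FDR 0.00155; 12.4-fold without the libraries that stood apart). Amotl2 was at 432, 415 and 213 CPM (2.57, SE 0.47, FDR 0.00377) and Ajuba at 211, 102 and 314 CPM (3.66, SE 0.57, FDR 0.00182), both above all FH libraries.

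The remaining values in CLiPs were 11.3, 32.6 and 14.9 CPM for Fjx1 (at least 19.9-fold above FH, FDR 0.00395), 37.9, 112 and 24.9 CPM for Ccn1 and 37.5, 92.7 and 15.8 CPM for Lats2. The highest of each was replicate 2, which stood apart. Between CLiPs and dediHeps no member was called with edgeR or DESeq2, against 1.65% of 11567 genes called higher and 1.39% lower. At an unadjusted p under 0.05 only Myof was lower in CLiPs (-1.18, SE 0.42, FDR 0.186), and the share of all genes at that threshold was not computed. The estimates for Ccn1 (-2.47, FDR 0.384) and Ccn2 (-2.54, SE 1.37, FDR 0.379) were large and imprecise, and -0.76 (FDR 0.359) and -0.02 (FDR 0.988) without the libraries that stood apart.

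When dediHeps were brought into aggregates, a culture in which they re-differentiate towards hepatocytes, all 10 members had negative fold changes. Among 11265 genes tested 5.11% were called lower and 4.39% higher, and 7 members were called lower and none higher. With the library score in the fit 1 member was called. The median log2 fold change was -2.48 over the members and -0.07 over all genes tested. The test took the dediHep and aggregate libraries as unpaired. Culture codes in the labels join each aggregate library to a dediHep library, and all 10 members were lower in the aggregate of each of the 3 cultures, as were 30.9% of the genes tested, while 28.9% were higher in each.

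Amotl2 had the lowest FDR of the members in this comparison. It was at 58.9, 77.7 and 105 CPM in aggregates, below all dediHep libraries (-2.42, SE 0.42, edgeR FDR 0.00549), and the aggregate to dediHep ratios in the 3 cultures were 0.0769, 0.175 and 0.339. Myof was at 80.7, 148 and 44.8 CPM (-2.16, SE 0.46, FDR 0.0145), also without overlap. Axl was at 153, 292 and 143 CPM (-1.42, SE 0.31, FDR 0.0163) and Ajuba at 58.1, 119 and 104 CPM (-1.15, SE 0.35, FDR 0.0522), both lower in all 3 libraries than in any dediHep library but under the fold threshold. Ptpn14, at 30.7, 43.0 and 74.3 CPM, overlapped with dediHeps and did not pass the test (-0.94, SE 0.41, FDR 0.136).

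The secreted members and Lats2 came close to the detection limit. Of these, Ccn2 and Fjx1 passed the filter through dediHeps and had little room to be called higher. Ccn1 was at 1.61, 5.64 and 11.7 CPM (-5.59, SE 1.59, edgeR FDR 0.041), Ccn2 at 0, 2.17 and 2.54 CPM (-6.32, SE 1.80, FDR 0.0414) and Lats2 at 7.26, 7.81 and 9.67 CPM (-2.69, SE 0.82, FDR 0.052). All 3 were below every dediHep library. Fjx1 at 3.23, 7.38 and 1.02 CPM (-2.54, SE 0.95, FDR 0.0926) and Ankrd1 at 2.42, 54.2 and 29.5 CPM (-3.30, SE 1.08, FDR 0.0636) overlapped with dediHeps.

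With the library score in the fit, Amotl2 was still called, while the values were -1.81 for Myof (FDR 0.0805), -1.74 for Ccn1 (FDR 0.197), -2.80 for Ccn2 (FDR 0.199), -0.78 for Lats2 (FDR 0.308), -1.71 for Fjx1 (FDR 0.375) and -2.79 for Ankrd1 (FDR 0.234). The scores were 4.40 to 6.88 in dediHeps and 4.14 to 4.42 in aggregates. Some of the sizes rested on the dediHep library that stood apart, and the calls on all 3 aggregate libraries. Without dediHep replicate 1 the values were -3.05 for Ccn1 (FDR 0.00735), -3.70 for Ccn2 (FDR 0.0118), -1.60 for Lats2 (FDR 0.0223) and -1.87 for Fjx1 (FDR 0.152), the last 2 no longer called. Without dediHep replicate 2, Ankrd1 (-3.06, FDR 0.111) and Fjx1 (-2.47, FDR 0.146) lost their calls. Leaving out any 1 aggregate library ended the calls of Ccn1, Ccn2, Fjx1, Ankrd1 and Lats2, with fold changes from -6.73 to -2.09, and leaving out aggregate replicate 3 also that of Myof (-1.82, FDR 0.0619). Ajuba no longer passed without aggregate replicate 1 (-0.91, FDR 0.181) or 3 (-1.22, FDR 0.134).

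**Figure D4:**
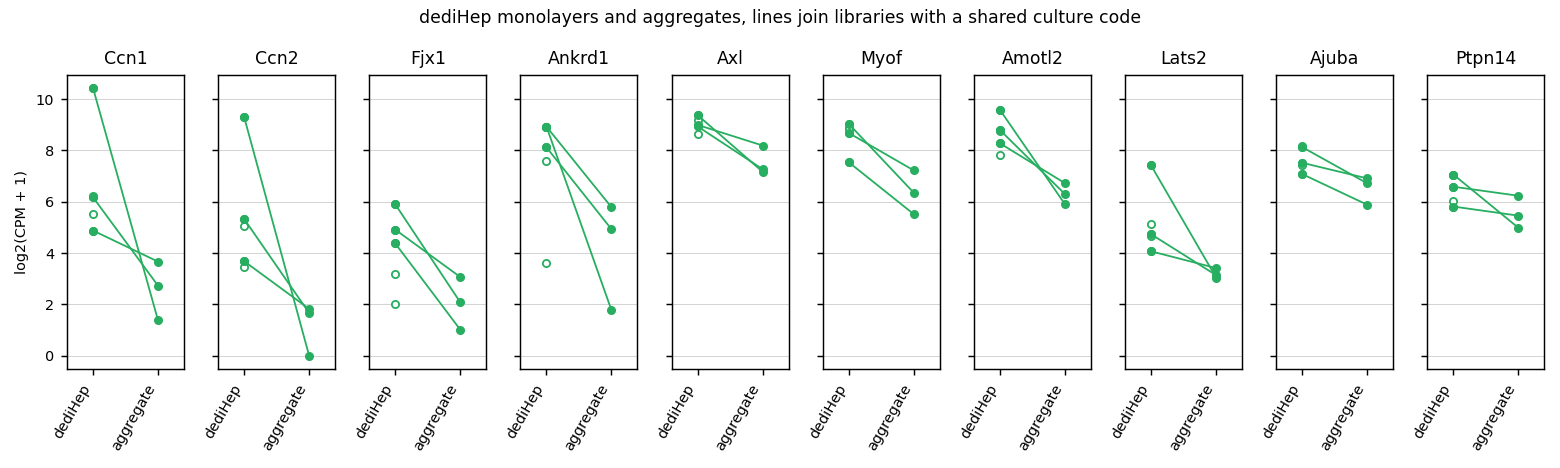
Level of the 10 Yap target genes in dediHeps (left) and dediHep aggregates (right), as log2(CPM + 1); points are libraries, lines join libraries of the same culture code and open circles are the 2 dediHep libraries without an aggregate. All 30 lines go down.

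Aggregates still differed from fresh hepatocytes in several members. Against FH, where 6.78% of 9544 genes tested were called higher and 9.78% lower, 7 members passed the filter. Axl (4.36, SE 0.50, edgeR FDR 0.000133), Myof (at least 81.7-fold, FDR 0.000317), Ajuba (2.36, SE 0.46, FDR 0.00349) and Ptpn14 (131-fold, counting interval 23.3 to 5185, FDR 0.000254) were called higher, with no overlap. Of these, Myof and Ptpn14, with 0 and 1 UMI in FH, had no room to be called lower. Ccn1 was called lower (-2.84, SE 0.82, FDR 0.0246), although FH replicate 2 at 5.48 CPM lay within the aggregate range, and the value with the library score in the fit was -2.14 (FDR 0.115). Lats2 fell by 1.81 (SE 0.48, FDR 0.0176), and the value for Amotl2 was 0.27 (FDR 0.635).

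Of the members not tested there, Ankrd1 was 86.0-fold higher in aggregates by its counts (interval 15.2 to 3414), Fjx1 at least 3.54-fold and Ccn2 at least 1.54-fold. Marker sums moved as well: the hepatocyte markers were at 1197 to 4595 CPM in dediHeps and 7542 to 11646 CPM in aggregates (Cyp2e1 at 0), the mesothelial markers at 438 to 1322 CPM and 86.5 to 258 CPM, and the cholangiocyte markers at 1010 to 1670 CPM (Cftr at 0) and 303 to 551 CPM. Stellate and fibroblast markers summed to 0 to 1.68 CPM in dediHeps, with Col1a2, Col3a1, Lum, Pdgfrb and Lrat at 0. The part of the other markers in the members' levels was not tested.

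In dediHep-SOs, where dediHeps grow as hollow spheres with an intestinal character, 3 members were called lower than in dediHeps and none higher, against 4.65% and 4.12% of 11470 genes tested. Axl was at 39.5, 29.7 and 6.48 CPM (-4.38, SE 0.54, edgeR FDR 0.000501) and Amotl2 at 23.1, 32.7 and 36.6 CPM (-3.84, SE 0.47, FDR 0.000443). Ccn1 was at 3.53, 1.98 and 13 CPM (-5.75, SE 1.63, FDR 0.0455). All 3 genes were below every dediHep library. The call for Ccn1 was lost without dediHep-SO replicate 1 (-5.44, FDR 0.183) or 2 (-5.28, FDR 0.177), and its size was -3.15 (FDR 0.00593) without dediHep replicate 1.

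The other 7 members did not pass the test in dediHep-SOs. Ajuba was at 208, 243 and 152 CPM, within the dediHep range (-0.07, SE 0.31, FDR 0.918), and Myof at 185, 221 and 268 CPM (-0.88, FDR 0.138). Ptpn14 was at 44.0, 58.0 and 49.97 CPM (-0.93, FDR 0.147) and Fjx1 at 9.96, 7.93 and 9.25 CPM (-1.39, FDR 0.299). Ankrd1 at 24.4, 41.6 and 133 CPM (-2.16, FDR 0.18), Ccn2 at 9.96, 12.4 and 76.8 CPM (-2.18, FDR 0.371) and Lats2 at 9.32, 7.93 and 16.7 CPM (-2.28, SE 0.82, FDR 0.109) had lower estimates with wide errors. Replicate 3, which stood apart, was the highest for Ccn1, Ccn2, Ankrd1 and Lats2 and the lowest for Axl and Ajuba.

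Budding organoids formed after Cdx2 had lower levels of nearly the whole group. Cdx2, the removal of Wnt3a and the Wnt agonist, and the organoid form cannot be told apart here. Against dediHep-SOs 7 of 9 members tested were called lower and none higher in dediHep-BOs, where 5.68% of 11301 genes tested were called lower and 5.6% higher. Ccn2, Fjx1, Ankrd1 and Axl were near the detection limit in dediHep-BOs. They passed the filter through dediHep-SOs and had no room to be called higher. Ptpn14 was at 3.88, 5.29 and 2.92 CPM (-3.60, SE 0.36, edgeR FDR 0.000113), Ajuba at 23.3, 37.5 and 14.2 CPM (-2.98, SE 0.38, FDR 0.000467) and Myof at 46.6, 59.98 and 23.4 CPM (-2.35, SE 0.36, FDR 0.00129).

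Fjx1 at 0.970, 0.441 and 0.834 CPM (-3.49, SE 0.51, FDR 0.00097), Ankrd1 at 2.43, 3.09 and 0 CPM (-5.13, SE 0.87, FDR 0.00234) and Ccn2 at 1.94, 3.09 and 0 CPM (-4.25, SE 1.02, FDR 0.0134) were at the detection limit. So was Axl, at 4.37, 2.21 and 1.25 CPM (-3.25, SE 0.70, FDR 0.00784), whose value with the library score in the fit was -1.01 (FDR 0.513); the scores were 5.95 to 6.46 in dediHep-BOs and 3.99 to 5.73 in dediHep-SOs. Amotl2 at 16, 22.9 and 8.76 CPM (-0.92, SE 0.39, FDR 0.102) and Lats2 at 7.28, 5.73 and 5.84 CPM (-0.81, SE 0.42, FDR 0.162) did not pass the test. Ccn1, at 3.40, 4.41 and 1.25 CPM, was not tested. Without dediHep-SO replicate 3 the value of Ccn2 was -2.64 (FDR 0.00683).

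Markers moved with this step too. The mesothelial markers summed to 593 to 1008 CPM in dediHep-SOs (Upk1b at 0) and 13.1 to 37.5 CPM in dediHep-BOs (Wt1 at 0), the cholangiocyte markers to 2496 to 3207 and 1142 to 1475 CPM, the 7 intestinal markers to 1189 to 1422 and 2658 to 2901 CPM, and the stellate and fibroblast markers to 0 to 1.61 and 4.17 to 297 CPM. In FIPC-SOs the mesothelial markers were at 352 to 447 CPM and in ISC-BOs at 23.2 to 57.3 CPM. The part of these markers in the members' levels was not tested.

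Compared with the organoids of intestinal origin, those of liver origin held more of several members. Against FIPC-SOs, 6 of 9 members tested were called higher and none lower in dediHep-SOs, where 4.92% of 11608 genes tested were called higher and 3.99% lower. In the 3 FIPC-SO libraries Ccn2 was at 0.780, 1.4 and 1.61 CPM, Fjx1 at 0.390, 0 and 0, Ankrd1 at 0.780, 1.4 and 2.25, and Axl at 1.56, 1.4 and 3.86. All lay under the dediHep-SO libraries, with log2 fold changes of 4.59 for Ccn2 (SE 0.90, edgeR FDR 0.00772), 5.37 for Ankrd1 (SE 0.75, FDR 0.00131) and 3.39 for Axl (SE 0.70, FDR 0.00986), and a ratio of 78.4-fold for Fjx1 (counting interval 13.6 to 3142, FDR 0.00109). Ccn2, Fjx1, Ankrd1 and Axl passed the filter through dediHep-SOs and had no room to be called lower. Without dediHep-SO replicate 3 the value of Ccn2 was 3.04 (FDR 0.00188).

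Myof, at 33.1, 46.6 and 69.7 CPM in FIPC-SOs, was higher in dediHep-SOs by 2.13 (SE 0.35, FDR 0.00285), a value that dropped under the fold threshold without dediHep-SO replicate 3 (1.99) or FIPC-SO replicate 1 (1.90). Ajuba, at 42.1, 32.6 and 47.9 CPM, was higher by 2.26 (SE 0.31, FDR 0.00121). Ptpn14 at 19.9, 23.8 and 41.4 CPM (0.79, SE 0.35, FDR 0.162), Amotl2 at 10.5, 17.5 and 30.5 CPM (0.60, FDR 0.365) and Lats2 at 2.34, 7.36 and 8.68 CPM (0.82, FDR 0.328) did not pass the test. Ccn1 was not tested, at 0.780, 0.701 and 3.86 CPM.

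Between the 2 kinds of budding organoids only 4 members passed the filter, and 1 was called higher in dediHep-BOs and none lower, against 1.34% and 1.71% of 11303 genes tested. That gene was Myof, at 1.62, 2.09, 3.39 and 3.06 CPM in ISC-BOs (4.07, SE 0.41, edgeR FDR 0.000339). It passed the filter through dediHep-BOs and had no room to be called lower. Amotl2 at 15.7, 4.60, 12.3 and 7.86 CPM, Lats2 at 2.70, 0, 2.97 and 4.37 CPM and Ajuba at 13, 14.6, 21.6 and 7.86 CPM in ISC-BOs had FDRs of 0.37, 0.246 and 0.25. Of the 16 conditions, ISC-BOs had the lowest mean of Ccn1, Ankrd1, Amotl2 and Lats2. Ccn2 and Axl had no count in the 4 ISC-BO libraries, and by counts alone Axl was at least 7.49-fold and Ccn2 at least 4.85-fold higher in dediHep-BOs.

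The difference between ISC-BOs and FIPC-SOs ran in the same direction as that between the dediHep organoids. Of 5 members tested 2 were called lower in ISC-BOs, Myof (-4.29, SE 0.39, edgeR FDR 6.5e-05) and Ptpn14 (-4.07, SE 0.48, FDR 0.00026, at 2.16, 2.51, 1.69 and 0.437 CPM), where 2.62% of 11644 genes tested were called lower and 4.0% higher. Myof and Ptpn14 passed the filter through FIPC-SOs and had no room to be called higher. Ajuba fell by 1.55 (SE 0.34, FDR 0.0114). In a test of the difference between both steps no member was called with edgeR, against 5.37% of 12379 genes higher and 4.08% lower, while DESeq2 called 1. At an unadjusted p under 0.05, 1 member was higher and 2 were lower, and the share of all genes at that threshold was not computed. Myof fell less from spherical to budding organoids of dediHep origin than of intestinal origin (1.91, SE 0.54, FDR 0.0381), and Ajuba fell more (-1.46, SE 0.52, FDR 0.0852). With the library score in the fit the values were 1.22 (FDR 0.253) and -1.07 (FDR 0.335). In a fit of all 49 libraries they were 1.87 (FDR 0.103) and -1.50 (FDR 0.124). The step of dediHep origin also adds Cdx2, and that of intestinal origin goes from fetal to adult cells. These cannot be told apart from origin. In both steps the medium with Wnt3a and a Wnt agonist also goes with the spherical form, and the 2 cannot be told apart. Myof no longer passed without dediHep-SO replicate 1 (1.77, FDR 0.103) or FIPC-SO replicate 3 (1.58, FDR 0.105), and Ajuba without any 1 of 9 of the 13 libraries (FDR 0.112 to 0.2).

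Verteporfin was used to inhibit Yap over 7 days of hepatocyte culture, and with 2 libraries a group only 1 member passed the test. Fjx1 was at 7.76 and 14.9 CPM with verteporfin and at 44.8 and 73.3 CPM with DMSO (-2.35, SE 0.41, edgeR FDR 0.0725). The ratios in the 2 replicate numbers were 0.173 and 0.203. Among 10400 genes tested 0.0288% were called lower and 0.24% higher. Leaving out verteporfin replicate 1 (-1.98) or DMSO replicate 2 (-1.95) brought Fjx1 under the fold threshold, and in a fit of all 49 libraries its FDR was 1.

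No other member passed the test with verteporfin. Myof was at 181 and 165 CPM with verteporfin and 281 and 323 with DMSO, without overlap but not past the test (-0.78, SE 0.23, FDR 0.346). Ccn1 was at 94.5 and 268 CPM against 159 and 388 (-0.58, SE 0.48, FDR 0.762), and Ccn2 at 66.6 and 186 against 149 and 277 (-0.73, SE 0.44, FDR 0.661), so that replicate 2 was the higher in both treatments. By replicate number 6 members were lower with verteporfin in both pairs, as were 34.5% of the genes tested, and Ajuba and Ptpn14 were higher in both, as were 29.5%.

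The rest of the group is given by its values. Ankrd1 was at 219 and 345 CPM with verteporfin and 340.1 and 338 with DMSO, Axl at 85.4 and 77.4 against 86.3 and 66.6, and Amotl2 at 385 and 456 against 416 and 550.4. Lats2 was at 66.6 and 83.6 CPM against 76.4 and 99.0, Ajuba at 206 and 175 against 167 and 165, and Ptpn14 at 50.5 and 39.6 against 31.0 and 34.1 (0.49, SE 0.31, FDR 0.677). At an unadjusted p under 0.05 no member was higher and 2 were lower, Fjx1 and Myof, and the share of all genes at that threshold was not computed. The library scores were 5.47 and 6.26 with verteporfin and 6.01 and 6.73 with DMSO, and with the score in the fit Fjx1 was at -1.85 (FDR 0.000132).

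**Figure D5:**
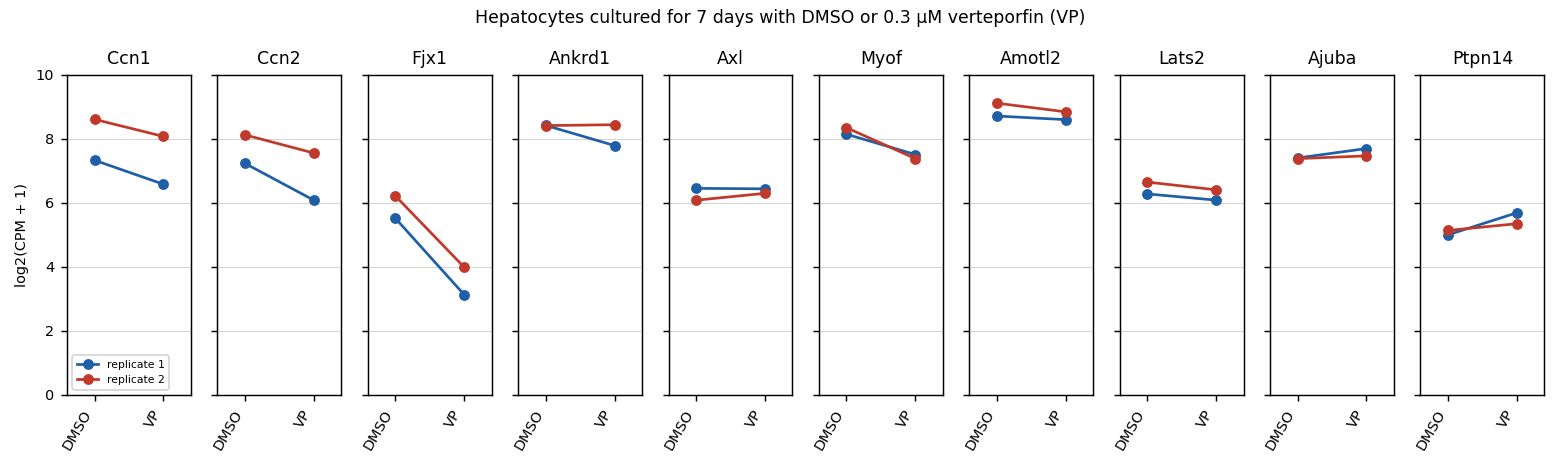
Level of the 10 Yap target genes in hepatocytes of 7 days with DMSO (left) and verteporfin (right), as log2(CPM + 1); points are libraries and lines join libraries of the same replicate number. Only Fjx1 is called lower, from 44.8 and 73.3 CPM to 7.76 and 14.9 CPM.

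Over all 16 conditions the members fell into differing orders. Axl had its highest mean on day 14 (746 CPM), above dediHeps (528) without overlap, and its next levels in CLiPs (441), on day 7 (257) and in aggregates (196) each overlapped with the one before. Ajuba was also highest on day 14 (363 CPM). Ccn1 was highest at 3 h (537 CPM), Ccn2 and Fjx1 on day 7 (358 and 85.7 CPM), Ankrd1 and Ptpn14 in CLiPs (486 and 118 CPM), Myof in dediHeps (409 CPM), and Amotl2 and Lats2 in hepatocytes with DMSO (483 and 87.7 CPM).

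Few neighbours in these orders, which were ranked by the same means, were separated. The share over all genes was not computed. For Ccn1 and Lats2 all 15 pairs of neighbouring conditions overlapped, for Ccn2 14 did, for Fjx1, Ankrd1, Myof and Ajuba 13, for Amotl2 12, and for Axl and Ptpn14 11. In Ccn2 the break lay between CLiPs (24.9 CPM) and dediHep-BOs (1.68 CPM), in Amotl2 between day 4 (215 CPM) and day 2, between day 1 (131 CPM) and aggregates (80.5 CPM), and between FH (62.0 CPM) and dediHep-SOs (30.8 CPM). In Ajuba aggregates (93.9 CPM) stood above FIPC-SOs (40.9 CPM), and ISC-BOs (14.3 CPM) above 3 h (0 CPM). The summed level of the 10 members ran from 24.5 to 43.2 CPM in ISC-BOs and 58.4 to 145 CPM in dediHep-BOs to 1621 to 4778 CPM in dediHeps.

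The likeness of each member to the others was described by Pearson's r between its log2 level and the mean profile of the other 9 over the 16 condition means. It was highest for Ankrd1 (0.962), Fjx1 (0.916), Amotl2 (0.889) and Ccn2 (0.865), and lowest for Myof (0.706) and Ccn1 (0.57). These points share libraries and their scaling. Within conditions, the library with the highest Ccn1 level also had the highest Lats2 level in 10 of 14 conditions and the highest Ankrd1 level in 10 of 14, but the highest Axl level in 2 of 12.

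The other genes of the pathway showed a smaller shift. Of 29 listed Hippo components, 27 were tested in the time course, and 1 was called higher than FH at 3 h, 4 on day 1, 6 on day 2, 6 on day 4, 10 on day 7 and 8 on day 14, with 1 called lower, on day 4. The shares of all genes called higher, given above, were 3.06% at 3 h, 6.57% on day 1, 9.21% on day 2, 11.4% on day 4, 13.2% on day 7 and 14.1% on day 14, and 12.4% were called lower on day 4. Tead1, a DNA-binding partner of Yap, rose by 3.15 on day 1 and 3.87 on day 14, Map4k4, a kinase that can activate the Lats kinases, by 2.63 and 3.71, and Frmd6, an upstream membrane protein, by 3.92 on day 1. Tead2 was 303-fold higher on day 14 (counting interval 104 to 1471). The median log2 fold change of the list on day 14 was 1.23. Yap1 itself was not called in any comparison, and its condition means were between 82.6 and 167 CPM.

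In dediHeps 10 of 27 Hippo components were called higher than in FH and none lower, against 13.1% and 12.6% of all genes tested. In aggregates none of 27 was called higher than in dediHeps and 3 were called lower, against 4.39% and 5.11%, namely Sav1 (-3.31), Amotl1 (-2.13) and Frmd6 (-3.23). From dediHep-SOs to dediHep-BOs 5 of 27 were called lower, against 5.68% of all genes, among them Wwtr1, the Yap paralogue known as Taz (-4.55), and Tead4 (-2.94). With verteporfin none of 26 was called, against 0.24% called higher and 0.0288% lower.

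A list of 13 other published Yap targets was less uniform, with 10 tested in the time course. Against FH 3 were called higher at 3 h and 1 lower, and 4, 3, 4, 5 and 5 were called higher on days 1, 2, 4, 7 and 14, with none lower. These counts of 10 stand beside the same shares of all genes as above, 3.06% called higher and 3.85% lower at 3 h and 6.57% to 14.1% called higher later. Gadd45a, a stress-response gene, rose by 6.94 at 3 h and fell by 5.67 from 3 h to day 1. Igfbp3, which binds insulin-like growth factors, was at least 206-fold higher on day 7, and Tgfb2, a growth factor, at least 39.6-fold higher on day 1. In aggregates 2 of 9 were called lower than in dediHeps, Foxf2 (-3.49) and Gadd45a (-2.76), against 5.11% of all genes. With verteporfin none of 9 was called, against 0.24% of all genes called higher and 0.0288% lower.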

How the data were processed

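The authors deposited counts of UMIs per Ensembl gene in 1 table of 49 libraries, as whole numbers without normalization, made by CEL-seq2 from 3′ transcript ends. The submitters' processing notes name bcl2fastq 2.20, Bowtie2 2.3.1, HTSeq 0.6.0 and GRCm38. RNA was extracted with 2 kinds of kit, and which library used which was not given in the sources used here. Every column was mapped to its sample by label, and 0 columns were left out. Of the 46078 identifiers 45143 were paired with a symbol through GENCODE M21, which also gave gene positions, and 14097 had no count. Library totals were 861047 to 3872936 counts (median 1976760). Replicates of a condition differed by more than counting noise (chi-square per degree of freedom 6.29 to 74.5 over 54 pairs), so no library was taken as a copy.

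The members and both pathway lists were chosen with earlier results of these data known. All 10 members are named. From the lists, up to 3 called genes of smallest p per comparison could be named. Tests ran in R 4.3.3 with edgeR 4.0.16 (glmQLFit and glmQLFTest, the quasi-likelihood F-test), TMM scaling, filterByExpr (minimum count 10, minimum total 15) and Benjamini-Hochberg adjustment over all genes tested. Genes were called past a log2 fold change of 2 in size and at an FDR under 0.1. The 6 time points and FH shared 1 fit of 7 groups, the test of the difference between both organoid steps used the 4 organoid groups, and each other comparison used its own libraries. SEs were derived from the F statistic. The script was tested on simulated data. Folds against a group without counts are bounds with 3 counts over the group, and ratios against 1 to 3 counts carry 95% exact intervals, all for counting error only.

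The library score and the 2 alternatives built on it were chosen after seeing the data, as was a correction for UMI collisions, since the highest count was 4096, the number of 6-base UMIs. The highest member count was 2856. The other alternatives were RLE normalization, DESeq2 1.42.0, no low-count filter, all 49 libraries in 1 fit, a replicate block and leaving out each library. Pairing was checked as the correlation of deviations from the group means. Aggregates and dediHeps of the same culture code had r of 0.183 to 0.339 in 3 pairs. They are shown as pairs, but the main test took them as unpaired, and the culture code entered only as an alternative. Verteporfin and DMSO libraries of the same number had r of 0.384. With 2 libraries a group both pairs must give the same r, so this is a single value and cannot settle a pairing. In the other comparisons title numbers or codes did not pair. Promoters are those of RefSeq. Python 3.11.15 with pandas 2.3.3, scipy 1.17.1 and matplotlib 3.10.9 made the tables and figures. Imaging, qPCR and transplantation data were not analysed here.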

Additional observations from a re-analysis of the deposited data

Results flagged for a closer look

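In the 2 conditions with 4 or 5 libraries, 18 sets of 1 member in 1 condition were searched for a single distant library. Dixon's ratio of the gap to the range was used on CPM, and 5 were found. Its cut-offs assume normal values, which low counts do not follow, so the rate of flags by chance is not known. Of the 5, 3 are the same library, so they are not independent. In dediHeps replicate 1 was far above the other libraries for Ccn1 (1386 CPM, next highest 72.8), Ccn2 (630.5 CPM, next highest 39.2) and Lats2 (169.9 CPM, next highest 33.8). It is the library with the highest score of its condition. In ISC-BOs the distant values lay near the detection limit, with Ccn1 at 2.09 CPM in replicate 2 (next highest 0.541) and Ankrd1 at 0.424 CPM in replicate 3 (0 in the others). That Ankrd1 value is a single UMI, which is flagged by construction.

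For 2 members the change from spherical to budding organoids had an FDR under 0.1 in an interaction test of edgeR, and neither was called. The difference, dediHep origin minus intestinal origin, was 1.91 on the log2 scale for Myof (SE 0.54, FDR 0.0381) and -1.46 for Ajuba (SE 0.52, FDR 0.0852). Neither passed with the library score in the fit (FDR 0.253 and 0.335) or with all 49 libraries in 1 fit (FDR 0.103 and 0.124). Origin cannot be told apart from Cdx2 in dediHep-BOs or from fetal and adult donors of the intestinal organoids.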

How the results depend on the processing

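No change of a member that passed the test turned its direction under any alternative, and RLE normalization and the correction for UMI collisions changed no count of members called by more than 1.5 times. The counts below are members called. Aggregates against dediHeps went from 7 to 1 with the library score in the fit and to 1 to 7 when a library was left out (2 without aggregate replicate 1 or 2, 1 without replicate 3). The difference between the organoid steps went from 0 to 1 with DESeq2, 2 without the libraries that stand apart, 1 with a replicate block and 0 to 2 with a library left out. dediHeps against day 14 went from 0 to 1 without the filter, with the score and with all 49 libraries. dediHep-SOs against dediHeps went from 3 to 5 without the filter and with all 49 libraries (2 to 4 with a library left out). dediHep-BOs against ISC-BOs went from 1 to 4 without the filter and 2 with all 49 libraries, and ISC-BOs against FIPC-SOs from 2 to 5 without the filter. Verteporfin went from 1 to 0 with the score and with all 49 libraries, and to 0 to 1 with a library left out (0 without verteporfin replicate 1 or DMSO replicate 2). CLiPs against dediHeps went from 0 to 2 with all 49 libraries.

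With the culture code as replicate block, on the libraries of shared codes, the count for aggregates remained at 7. Ankrd1 was at -4.15 (edgeR FDR 0.00544), Fjx1 at -3.22 (FDR 0.00591), Ccn2 at -5.30 (FDR 0.0138) and Ccn1 at -4.21 (FDR 0.0437). Amotl2 was at -2.59 (FDR 0.00597), Myof at -2.08 (FDR 0.00592) and Lats2 at -2.26 (FDR 0.0464). For verteporfin the title numbers correlated at 0.384, a single value that both pairs share by construction. With the replicate block 59 genes were called in place of 28, with Fjx1 at -2.36 (FDR 3e-05). In other comparisons numbers did not pair libraries, and with them as a block Ccn1 lost its day 4 call (1.62, FDR 0.189). No other call of a member was lost under the block.

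Counts over all genes moved by over 1.5 times in some fits. Without the filter they went from 1170 to 1758 for the difference between organoid steps, 2901 to 4481 for dediHeps against FH, 662 to 1550 for dediHeps against day 14, 1071 to 1608 for aggregates against dediHeps, 1580 to 3007 for aggregates against FH, 1005 to 1652 for dediHep-SOs against dediHeps, 1275 to 2385 for dediHep-BOs against dediHep-SOs, 1034 to 2052 for dediHep-SOs against FIPC-SOs, 345 to 798 for the budding organoids, 771 to 1504 for ISC-BOs against FIPC-SOs, 2557 to 4103 for CLiPs against FH, 352 to 714 for CLiPs against dediHeps and 28 to 90 for verteporfin. With all 49 libraries they were 1303, 1805, 2725, 1678, 1953 and 1558 for dediHeps against day 14, aggregates against dediHeps, aggregates against FH, dediHep-SOs against dediHeps, dediHep-BOs against dediHep-SOs and dediHep-SOs against FIPC-SOs, 1169 for CLiPs against dediHeps and 0 for verteporfin. Without the libraries that stand apart they were 1589 in place of 860 at 3 h, 2157 for the organoid steps, 2108 for dediHep-BOs against dediHep-SOs, 1716 for dediHep-SOs against FIPC-SOs and 542 for CLiPs against dediHeps, and with the score 693 for the organoid steps, 550 for aggregates against dediHeps and 77 for verteporfin. CLiPs against dediHeps gave 534 with DESeq2 and 230 with the block. The cause was not tested beyond the change in genes or libraries that each alternative makes. The share of calls that were higher moved from 44.3% to 59.2% at 3 h and from 55.2% to 44.6% for dediHep-SOs against FIPC-SOs without the libraries that stand apart. Without the filter it moved from 64.8% to 51.2% for dediHeps against day 14, 44.1% to 57.0% for the budding organoids (58.0% with all 49 libraries), 60.4% to 45.9% for ISC-BOs against FIPC-SOs (49.6% with all 49) and 54.3% to 64.4% for CLiPs against dediHeps, with the culture block from 47.0% to 57.1% for dediHep-SOs against dediHeps, and with the score from 89.3% to 54.5% for verteporfin. RLE and DESeq2 scaling moved the median of all genes by -0.14 (log2) for CLiPs against FH, and the fit of all 49 libraries by 0.12 for dediHeps against FH. Depth limits the members with under 3 UMIs in a library.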

Other observations

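The 8 other genes whose mean level over the 16 conditions was most like that of the 10 members, among 9977 with a mean of at least 10 CPM, were Fam43a (Pearson's r 0.969), Ets1 (0.965), Vim (0.965), Ccdc88a (0.955), Sorbs2 (0.954), Pfn2 (0.953), Msn (0.952) and Plk2 (0.949). Vim encodes the intermediate filament protein of mesenchymal cells, Msn a protein that links actin to the membrane and Pfn2 an actin-binding protein. The 16 points share libraries and scaling, and the likeness is a description.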
